A study of Homo sapiens with 6 samples.

Results

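CYP1B1 and the aryl hydrocarbon receptor pathway were described through 7 genes: the receptor AHR, its dimer partners ARNT and ARNT2, the repressors AHRR and TIPARP, and the target enzymes CYP1A1 and CYP1B1. All probe sets annotated to 1 of these genes alone were taken, which gave 16 of the 41091 probe sets that name 1 gene, and 7 of 19775 genes. The genes were chosen by their measured signals in this same contrast of 3 against 3 arrays, CYP1B1 for its low signal in the transfected line, so their values are given as a description and without p-values.

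The first group held 3 samples labelled 231wCFry, which the labels describe as MDA-MB-231 cells stably carrying a plasmid with the wild-type Fry cDNA of the Cop rat, under puromycin selection. The second group held 3 samples of MDA-MB-231 cells that were not transfected. MDA-MB-231 is an established human breast cancer line without the oestrogen receptor, and Fry is a large scaffold protein of NDR-family kinases. All samples were monolayer cultures grown in medium with heat-inactivated serum and penicillin-streptomycin and taken at 70% confluence. The transfected group is 1 clone, chosen for its Fry level, and no clone with an empty vector is described. The samples of each line differed in passage number, and the passage of each is not given. Nothing else says how separate their cultures were, so p-values measure only the spread between these samples of 1 line and 1 clone. That spread may be partly technical.

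The aryl hydrocarbon receptor is a transcription factor of the bHLH-PAS family that waits in the cytoplasm in a complex with HSP90 and p23. A ligand such as a dioxin, a polycyclic hydrocarbon or a tryptophan metabolite sends it to the nucleus, where it pairs with ARNT and binds DNA at xenobiotic response elements with the core GCGTG. CYP1A1, CYP1B1, AHRR and TIPARP are among its direct targets, and the last pair damp the response again. CYP1B1 oxidises polycyclic hydrocarbons, oestrogens and retinoids, and is expressed outside the liver, in breast tissue among others.

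Values are MAS5 signals in arbitrary units, and all arrays as deposited share 1 trimmed mean. The arrays differed over most of the transcriptome: 20437 of 32768 probe sets tested passed at an adjusted p under 0.05 (limma, Benjamini-Hochberg). Human FRY was dim, at 0.1 to 5.0 in the samples labelled Fry clone and 0.5 to 9.8 in the parental samples over its 4 probe sets, all below the filter on low signal. The introduced cDNA is of rat, so these readings do not check the transgene. The labelled breast epithelial identity was checked with marker lists that were written with earlier results of these data known. Of 9 tested epithelial markers 8 fell and 0 rose, and their summed signal was 1751.9 to 1923 in the samples labelled Fry clone, against 10263 to 10865 in the parental samples. KRT19 averaged 1.1 ± 0.35 and 1669 ± 43.5 in these groups (SD, n = 3 each), while CDH1 was dim in both. Of 7 tested melanocytic markers 6 rose and 0 fell, and the summed signal of the 8 with a probe set was 5016 to 5476 in the samples labelled Fry clone, against 386 to 471 in the parental samples, where 4 of the 8 were at background. SOX10 stood at 1376 to 1420 in the samples labelled Fry clone and at 0.2 to 0.8 in the parental samples. In the samples labelled Fry clone, SOX10, S100B, MITF and ERBB3 carried most of the sum. MLANA (16.5 to 64.1), TYR (19.3 to 35.3), TYRP1 (5.1 to 10.4) and PMEL (3.2 to 8.2) were dim in them. PMEL, at 4.3 to 14.3 in the parental samples, did not pass. Of the leukocyte markers 2 were tested and both fell, with a summed signal of 4 markers of 73.9 to 85.4, against 821 to 870.1 in the parental samples. Nearly all of this sum was LAPTM5, at 799 to 852 in the parental samples. CD14 read 12.3 to 17.2 in them, and PTPRC and CD3E were below the filter on low signal. Of 4 tested fibroblast markers 1 rose and 3 fell, and the sum over all 7 was 90.1 to 104.3, against 326 to 389 in the parental samples. The ratio of the 3' to the 5' GAPDH probe set, which reads RNA integrity, was 1.24 to 1.33 in the samples labelled Fry clone and 1.36 to 1.39 in the parental samples. That of actin overlapped, at 2.45 to 2.65 and 2.59 to 3.004 in these groups, and the part of RNA integrity in the results was not tested. The samples labelled Fry clone thus go against their label in these markers, and an effect of Fry, of clonal selection or of another origin of the cells cannot be told apart in any result here. In bulk RNA, fewer cells of a kind and less RNA per cell cannot be told apart either.

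AHR, the receptor itself, was higher in the samples labelled Fry clone. Its only probe set read 665, 655 and 745 in them, against 383, 424 and 457 in the parental samples. The groups did not overlap, and the log2 difference, taken on log2(signal + 16) as all such differences here, was 0.69 (SE 0.10). The ratio of the mean signals was 1.63.

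ARNT, the partner that AHR needs to bind DNA and that HIF1A also uses, was lower on every probe set tested. Its brightest probe set read 290.5, 295 and 303 in the samples labelled Fry clone, against 483, 517 and 484 in the parental samples, a log2 difference of -0.71 (SE 0.09). All 5 tested ARNT probe sets had groups that did not overlap, with log2 differences between -1.11 and -0.32. The remaining 2 of its 7 probe sets lay below the filter on low signal, at 0.1 to 3.7 and 1.0 to 10.1 in these groups. ARNT2, a paralog that can replace ARNT in some tissues, differed more: it read 29.4, 34.7 and 43.0 in the samples labelled Fry clone and 122, 143 and 145 in the parental samples (log2 difference -1.57, SE 0.12, and -1.01 with a pseudocount of 64). The receptor and both of its dimer partners therefore stood on opposite sides of 0.

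AHRR, the repressor that competes with AHR for ARNT, was the member with the largest excess in the samples labelled Fry clone. Its only probe set read 195, 185 and 212 in them, against 23.1, 11.8 and 24.3 in the parental samples. The lowest array of the first group was well above the highest of the second, and the log2 difference was 2.59 (SE 0.14), with a ratio of mean signals of 9.99. With a pseudocount of 64 the difference was 1.64. TIPARP, a mono-ADP-ribosyltransferase that modifies AHR and shuts off its activity, read 810, 840 and 894 in the samples labelled Fry clone and 493, 407 and 699 in the parental samples. Those groups did not overlap either, but the parental arrays were spread widely, and the log2 difference of 0.69 (SE 0.17) ran between 0.52 without parental replicate 2 and 0.90 without parental replicate 3.

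CYP1A1, the classic induced target of the receptor, was dim and did not separate the groups. It read 27.1, 27.9 and 20.4 in the samples labelled Fry clone and 31.4, 18.4 and 33.5 in the parental samples. The groups overlapped, and the log2 difference of -0.08 (SE 0.15) turned to 0.0094 without replicate 3 of the samples labelled Fry clone and to 0.022 without parental replicate 3. These arrays had no sample treated with a ligand, so they show basal levels alone.

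CYP1B1 was bright in the parental samples and at or near background in the samples labelled Fry clone. Its brightest probe set read 1.7, 1.9 and 1.5 in the samples labelled Fry clone, against 2176, 2060 and 2698 in the parental samples. Background was set for each array by the brightest of 27 bacterial control probe sets without spiked RNA, which read 2.7 to 4.9 in the samples labelled Fry clone, and this probe set did not exceed it on any of these 3 arrays. Against that level it was at least 652-fold lower, a bound that a higher floor would make smaller, and the log2 difference was -7.03 (SE 0.11). A further probe set read 0.2, 0.8 and 3.6 in the samples labelled Fry clone and 1900, 1774 and 2100.0 in the parental samples, at least 545-fold lower. The third tested probe set read 3.0, 0.3 and 5.8 in the samples labelled Fry clone, against 1035, 1023 and 1302 in the parental samples (log2 difference -5.90, SE 0.14). Its reading of 5.8, in replicate 3, was above the background of 4.9 on that array. The last probe set lay below the filter and was dim in both groups, at 1.5 to 1.9 in the samples labelled Fry clone and 6.2 to 8.8 in the parental samples. The 3 bright probe sets therefore showed 1 pattern, and the other one carried little signal on any array.

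**Figure D1:**
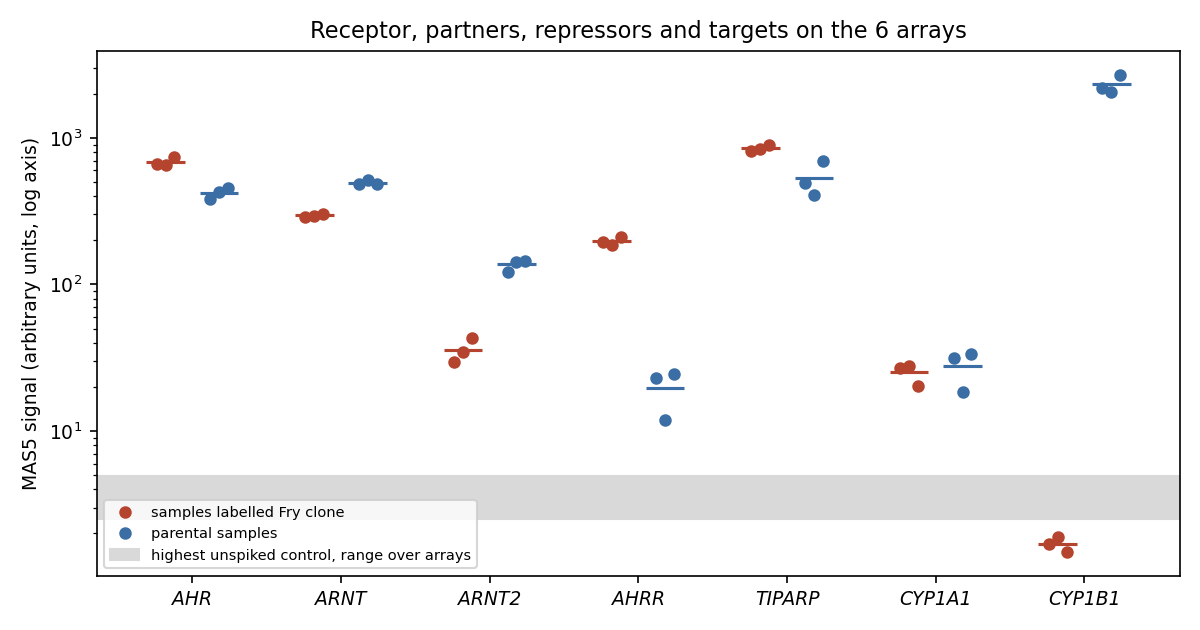
MAS5 signal (arbitrary units, log axis) of the probe set with the highest mean for each of the 7 genes, 1 point per array and a bar at the group mean, samples labelled Fry clone left and parental samples right (n = 3 each). CYP1B1 lies at 1.5 to 1.9 in the samples labelled Fry clone, under the grey band of the highest unspiked control (2.5 to 4.9 over the arrays), and at 2060 to 2698 in the parental samples, while AHRR shows the opposite order and CYP1A1 overlaps.

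Of the 16 probe sets, 13 passed the filter on low signal. Of these, 3 were called higher and 9 lower in the samples labelled Fry clone and 1, that of CYP1A1, did not pass, where 62.4% of all probe sets tested were called (30.2% higher and 32.2% lower). Their groups did not overlap in 12 of 13, where 67.2% of all tested probe sets had that property. Since this contrast chose the genes, nothing is read from these counts.

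**Figure D2:**
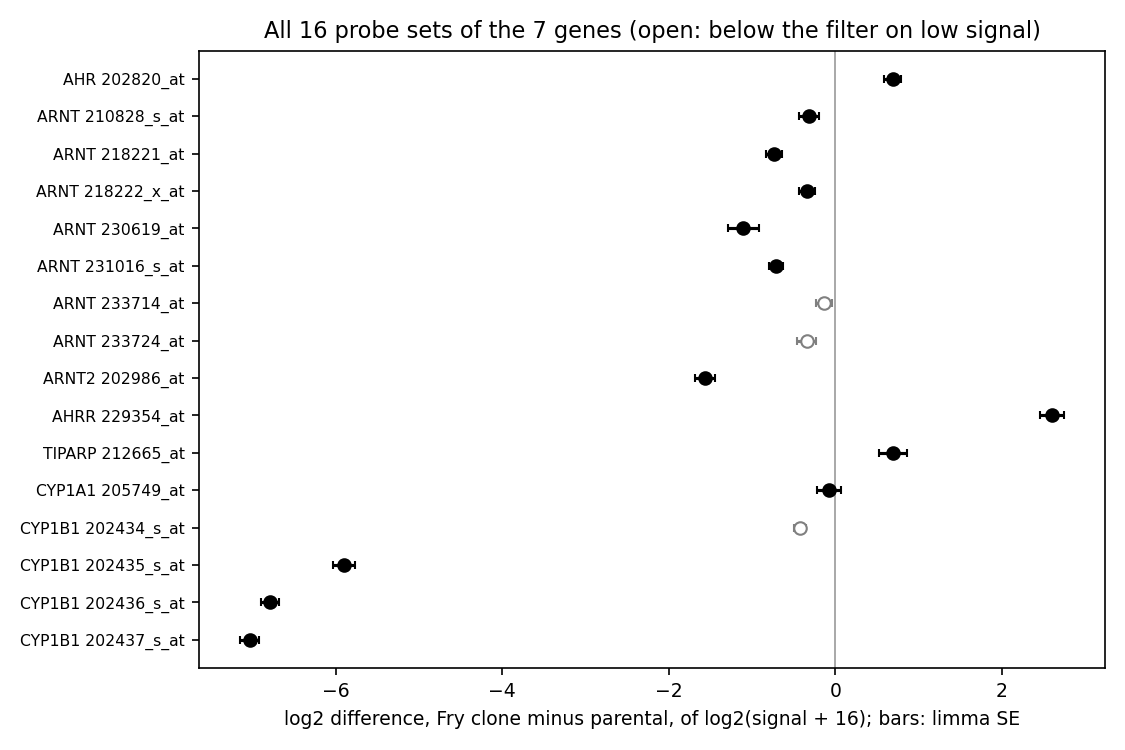
Log2 difference (samples labelled Fry clone minus parental, of log2(signal + 16)) with the limma SE for all 16 probe sets, closed where tested and open for the 3 below the filter, which come from a fit without it. The 3 tested CYP1B1 probe sets lie between -7.03 and -5.90, the 5 of ARNT between -1.11 and -0.32, and AHRR at 2.59.

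Within the parental samples the 4 targets among the 7 genes shared an order of the arrays. CYP1B1, CYP1A1, AHRR and TIPARP each read lowest in parental replicate 2, at 89.1%, 66.3%, 59.8% and 76.4% of their group means. Each read highest in parental replicate 3, at 116.7%, 120.6%, 123.1% and 131.1% of those means. All 4 genes had that order of the 3 arrays, as did the 3 tested CYP1B1 probe sets, while 16% of all 13606 genes tested had it. Of the 13 other tested genes listed as inducible by AHR, 3 had it (CYP1A2, IL1B and PTGS2, of which the first pair are named after their values were seen), or 23.1%, while EREG was highest in parental replicate 2. AHR itself had another order, lowest in replicate 1 (90.8%) and highest in replicate 3 (108.6%), and ARNT was highest in replicate 2 (104.5%). Among the samples labelled Fry clone the targets shared no order: CYP1A1 was lowest in replicate 3, AHRR in replicate 2 and TIPARP in replicate 1. The median signal of all probe sets was also lowest on parental replicate 2 (10.4) and highest on parental replicate 3 (12.1), and its part in the pattern was not tested. The pattern was noticed in the data, rests on 3 arrays and has no test.

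**Figure D3:**
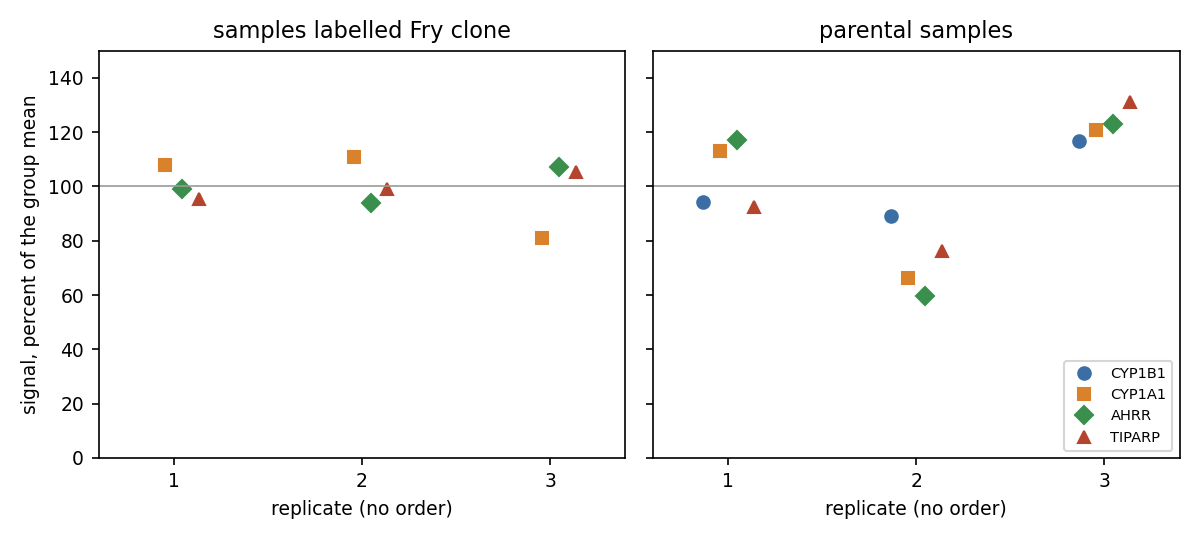
Signal of the receptor's targets as a percent of their group mean, by replicate, in the samples labelled Fry clone (left) and the parental samples (right); replicates have no order. All 4 targets lie below 100% in parental replicate 2 and above it in parental replicate 3. CYP1B1 is left out on the left, where the probe set drawn was at background.

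The promoters of 3 targets are shown because their genes behaved differently: AHRR was higher, TIPARP higher by less, and CYP1A1 did not separate the groups. The windows are from RefSeq (GRCh38.p14) and run from 250 bases before to 50 after an annotated start. Both strands were searched for the core GCGTG and for the longer element TNGCGTG, which contains it; capitals mark the core (GCGTG, or CACGC where it lies on the other strand). The windows are chr5:321464-321763 (plus strand) for AHRR, chr3:156674340-156674639 (plus strand) for TIPARP and chr15:74725479-74725778 (minus strand) for CYP1A1.
AHRR: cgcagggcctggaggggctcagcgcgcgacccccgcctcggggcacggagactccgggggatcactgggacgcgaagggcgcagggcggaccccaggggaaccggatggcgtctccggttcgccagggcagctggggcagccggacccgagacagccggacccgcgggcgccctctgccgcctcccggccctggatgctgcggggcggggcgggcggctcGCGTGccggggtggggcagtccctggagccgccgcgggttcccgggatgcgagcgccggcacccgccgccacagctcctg
TIPARP: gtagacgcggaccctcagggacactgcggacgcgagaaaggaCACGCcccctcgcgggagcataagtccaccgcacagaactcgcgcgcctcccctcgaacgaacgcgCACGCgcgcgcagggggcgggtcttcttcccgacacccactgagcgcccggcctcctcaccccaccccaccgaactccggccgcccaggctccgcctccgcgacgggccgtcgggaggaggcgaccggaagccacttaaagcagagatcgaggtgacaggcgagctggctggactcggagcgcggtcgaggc
CYP1A1: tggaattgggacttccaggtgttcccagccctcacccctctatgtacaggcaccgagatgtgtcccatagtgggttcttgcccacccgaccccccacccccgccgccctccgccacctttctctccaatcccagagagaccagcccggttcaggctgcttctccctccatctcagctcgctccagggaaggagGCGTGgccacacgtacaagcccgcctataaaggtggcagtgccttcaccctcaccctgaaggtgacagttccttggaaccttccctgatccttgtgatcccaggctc
The AHRR window held 1 core, which began 30 bases before the start and was also the only TNGCGTG found in any member's window. The TIPARP window held 2 cores on the other strand, at 208 and 142 bases before the start, and that of CYP1A1 held 1, at 57 bases before it. Over all 35116 windows, 36.5% held the core and 5.51% held TNGCGTG. The table also held a window of AHR with 1 core, a second AHRR window with 2, further TIPARP windows with 0 and an ARNT window with 0. The AHRR and TIPARP windows held 40 and 41 CpG dinucleotides and that of CYP1A1 held 10, where the median of all windows was 14. A match is a description of these letters and not evidence of binding. Bases outside the windows were not searched, so a gene without the longer element here may hold it elsewhere. No window of CYP1B1 or ARNT2 was matched.

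The protein-coding neighbours of CYP1B1 were called in both directions or did not pass, and the noncoding CYP1B1-AS1 beside it was lower on its 1 tested probe set. The 5 tested protein-coding genes nearest on each side, in RefSeq order on chromosome 2, held 5 that rose, 1 that fell and 4 that did not pass, where 66.9% of all genes tested were called (33.9% higher and 32.9% lower). Their median log2 difference was 0.22, beside 0.0083 over all genes. QPCT, which forms pyroglutamate at peptide ends, rose to 1707 ± 41.4 in the samples labelled Fry clone, against 110.3 ± 21.9 in the parental samples (log2 difference 3.78, SE 0.12, limma adjusted p = 9.34e-09). GEMIN6, of the SMN complex, rose as well (1.15, adjusted p = 3.63e-06), and so did NDUFAF7, an assembly factor of mitochondrial complex I (1.10, adjusted p = 9.31e-06). The groups did not overlap for 6 of these 10 genes, where 73% of all genes tested had that property. The helicase gene DHX57 rose by 0.34 (adjusted p = 0.0117), a call lost where its probe sets were averaged (0.22). The only fall was that of RMDN2, the adjacent gene on one side, named here after its value was seen. It averaged 36.7 ± 3.30 in the samples labelled Fry clone and 46.6 ± 3.21 in the parental samples (-0.25, adjusted p = 0.041), and the count of falls was 0 without replicate 2 or 3 of the samples labelled Fry clone and without parental replicate 2 or 3. CYP1B1-AS1, a long noncoding RNA annotated beside CYP1B1 and also named after its values were seen, had 1 tested probe set. It read 1.4, 0.3 and 4.1 in the samples labelled Fry clone, against 18.7, 19.8 and 23.0 in the parental samples, at least 5.80-fold lower (adjusted p = 2.52e-05). Its other probe set was at background in both groups.

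**Figure D4:**
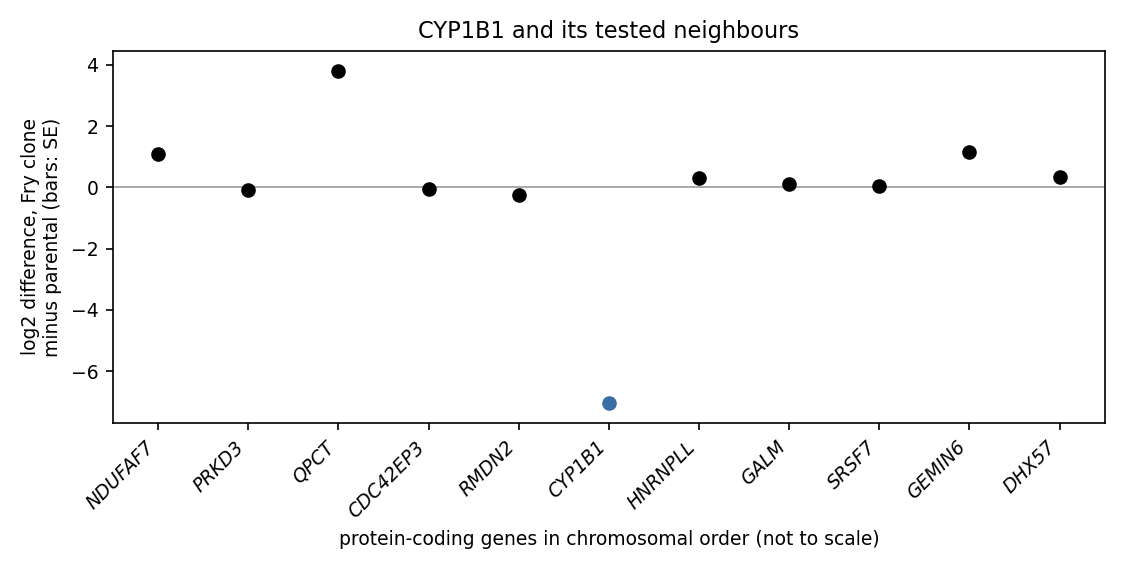
Log2 difference (samples labelled Fry clone minus parental) with SE for CYP1B1 (blue) and the 5 tested protein-coding genes on each side, in chromosomal order and not to scale; the bars are smaller than the points. CYP1B1 lies at -7.03 while the neighbours lie between -0.25 and 3.78.

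The genes with the most similar profile to CYP1B1 were found by the Euclidean distance between log2(signal + 16) values over the 6 arrays, each gene centred on its own mean. They were PLAU, the urokinase plasminogen activator (distance 0.25), the peroxiredoxin PRDX1 (0.27), C19orf33 (0.31), the growth factor binder IGFBP4 (0.46) and the keratin KRT19 (0.56). Each read 10.0 or less in every sample labelled Fry clone and at least 1623 on every parental array, a likeness that is set by the contrast between the groups. PLAU, for example, read 5.4, 7.2 and 6.0 in the samples labelled Fry clone, against 2571, 2191 and 2975 in the parental samples. The order of the parental arrays seen for CYP1B1, replicate 2 lowest and replicate 3 highest, was shared by 1 of the 5, PLAU.

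Other genes of the pathway were taken from 9 lists, written with earlier results of these data known. Of 106 genes listed, 95 had a probe set that names 1 gene and 74 passed the filter. Among these, 24 rose, 31 fell and 19 did not pass, where 66.9% of all genes tested were called (33.9% higher and 32.9% lower). Their median log2 difference was -0.09, beside 0.0083 over all genes. The lists thus moved in both directions, as most of the array did, and the counts per list below stand beside the same shares. Differences of dim genes depend on the pseudocount: with 64 in place of 16, those of SIM2, EREG, VAV3, PTGS2, KMO, KYAT1, POR, GPER1, CYP26B1, CYP2R1 and ALDH1A1, described next, were smaller by over 1.5 times and kept their calls. The SOX10 and keratin levels given above moved with the same groups, and their part in these results was not tested.

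None of the 4 tested chaperones of the receptor complex passed, 0 at an adjusted p under 0.05. HSP90AA1 and PTGES3 are named after their values were seen. HSP90AA1, the inducible HSP90, averaged 4933 ± 694 in the samples labelled Fry clone and 5006 ± 576 in the parental samples (log2 difference -0.02, limma adjusted p = 0.885). PTGES3, the co-chaperone p23, read 2344 to 2839 and 2920 to 3177 in these groups without overlap and did not pass (adjusted p = 0.0671).

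Among other bHLH-PAS factors, which share ARNT or its kind of dimerization, 2 of 8 tested rose, 5 fell and 1 did not pass (median -0.68). BMAL2, a relative of the clock factor BMAL1, read 4.8, 1.1 and 3.4 in the samples labelled Fry clone, against 640.0, 642 and 777 in the parental samples (-5.20, SE 0.12, adjusted p = 7.95e-10). SIM2 (-1.88, adjusted p = 7.19e-06) and CLOCK (-0.94, adjusted p = 2.49e-05, and -0.54 as the mean of its probe sets) fell. EPAS1, the hypoxia factor HIF2A, fell by 1.18 on the log2 scale (adjusted p = 0.00259), with parental arrays spread between 346 and 821. Of 6 tested coregulators 2 rose, 3 fell and 1 did not pass. The acetyltransferase EP300 averaged 721 ± 22.9 in the samples labelled Fry clone and 299 ± 38.2 in the parental samples (1.23, adjusted p = 7.21e-06), and the coactivator NCOA2 rose by 0.81 on the log2 scale (adjusted p = 0.00162). Of the 3 tested NCOA2 probe sets 2 did not pass, and the difference was 0.31 as the mean of all 3. The corepressor NRIP1 fell to 53.7 ± 1.2 in the samples labelled Fry clone, against 181 ± 11.3 in the parental samples (adjusted p = 5.47e-07) and the acetyltransferase CREBBP by 0.41 on the log2 scale (adjusted p = 0.00688).

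Of 13 tested genes reported elsewhere as inducible by AHR, 3 rose, 7 fell and 3 did not pass (median -0.25). The hormone STC2 read 1626, 1562 and 1583 in the samples labelled Fry clone, against 10.1, 6.9 and 10.1 in the parental samples (6.01, SE 0.09, adjusted p = 2.07e-10), and VAV3 rose by 2.41 (adjusted p = 1.66e-07). The growth factor EREG read 1.9, 0.3 and 0.8 in the samples labelled Fry clone and 272.5, 372 and 264 in the parental samples, at least 84.9-fold lower (adjusted p = 6.67e-09), with a log2 difference of -4.21, or -2.45 as the mean of its probe sets. PTGS2, the inducible cyclooxygenase, was at least 8.70-fold lower (adjusted p = 0.000224), with a parental mean of 33.5 ± 16.4. These genes have other regulators too, and the list moved in both directions, as AHRR and CYP1B1 did.

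CYP1B1 belongs to the cytochrome P450 family, of which 45 other genes had a probe set and 20 passed the filter. Of these, 5 rose, 9 fell and 6 did not pass (median -0.12), where 66.9% of all genes tested were called (33.9% higher and 32.9% lower). CYP4V2, a fatty acid hydroxylase, averaged 35.9 ± 8.39 in the samples labelled Fry clone and 370 ± 56.5 in the parental samples (-2.90, adjusted p = 1.6e-07). CYP2R1, the vitamin D 25-hydroxylase, fell by 2.51 (adjusted p = 2.35e-08) and CYP26B1, which clears retinoic acid, by 1.85 (adjusted p = 1.3e-07). As means of probe sets these differences were smaller, at -1.32 for CYP4V2, -1.55 for CYP2R1 and -0.82 for CYP26B1, where 1 of 4 CYP4V2 and 1 of 2 CYP26B1 probe sets did not pass. The sterol 27-hydroxylase CYP27A1 rose to 381 ± 24.9 in the samples labelled Fry clone, against 95.9 ± 10.8 in the parental samples (1.83, adjusted p = 3.92e-07). Among electron donors and haem supply, 1 of 7 tested rose, 4 fell and 2 did not pass. Cytochrome b5 (CYB5A) fell by 1.01 (adjusted p = 3.6e-05), ferrochelatase (FECH) by 0.79 (adjusted p = 0.000192) and the P450 reductase POR by 0.52 (adjusted p = 0.00187), while the reductase CYB5R3 rose by 0.53 (adjusted p = 0.000811).

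Enzymes that make or use ligands and substrates of the pathway included large rises, beside falls and genes that did not pass. Of 7 tested enzymes of the kynurenine route, whose products include AHR ligands, 3 rose, 1 fell and 3 did not pass (median 0.02). KYNU, kynureninase, read 944, 916 and 986 in the samples labelled Fry clone, against 45.7, 87.4 and 37.1 in the parental samples (3.79, SE 0.21, adjusted p = 3.58e-07). QPRT, which turns quinolinic acid towards NAD, read 877, 1041 and 869 in the samples labelled Fry clone, against 0.6, 0.5 and 8.3 in the parental samples (5.65, adjusted p = 3.18e-09). KMO, kynurenine 3-monooxygenase, was at least 7.86-fold higher (adjusted p = 3.99e-06), and the transaminase KYAT1 fell by 0.55 (adjusted p = 0.00116). Of the 3 tested KYAT1 probe sets 2 did not pass, and the difference was -0.27 as the mean of all 3. IDO1 and TDO2, which start the route, were below the filter. Of 8 tested genes of retinoid metabolism 4 rose, 3 fell and 1 did not pass (median 0.51). Among the falls was that of CYP26B1, given above (log2 difference -1.85). The retinal reductase DHRS3 averaged 915 ± 86.9 in the samples labelled Fry clone and 15.7 ± 12.0 in the parental samples (4.93, adjusted p = 7.42e-08), and the retinal dehydrogenases ALDH1A3 (3.01, adjusted p = 1.39e-08) and ALDH1A1 (1.48, adjusted p = 3.76e-06) rose.

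Of 7 tested genes of oestrogen metabolism and response, 2 rose, 3 fell and 2 did not pass (median -0.30). The sulfotransferase SULT1A1 rose by 1.11 (adjusted p = 4.16e-05, and 0.72 as the mean of its probe sets), while the membrane oestrogen receptor GPER1 fell by 0.92 (adjusted p = 0.000109), HSD17B7 by 0.65 (adjusted p = 0.000487) and the sulfatase STS by 0.33 (adjusted p = 0.0113, a call lost without replicate 1 of the samples labelled Fry clone). Of 14 tested PARP enzymes, the family of TIPARP, 7 rose, 5 fell and 2 did not pass (median 0.29). PARP16, of the endoplasmic reticulum, averaged 798 ± 97.9 in the samples labelled Fry clone and 213 ± 9.51 in the parental samples (1.82, adjusted p = 5.53e-07). PARP8 (1.15, adjusted p = 5.8e-05), PARP9 (1.11, adjusted p = 0.00211) and PARP14 (0.76, adjusted p = 0.00126, and 0.47 as the mean of its probe sets) rose as well.

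**Figure D5:**
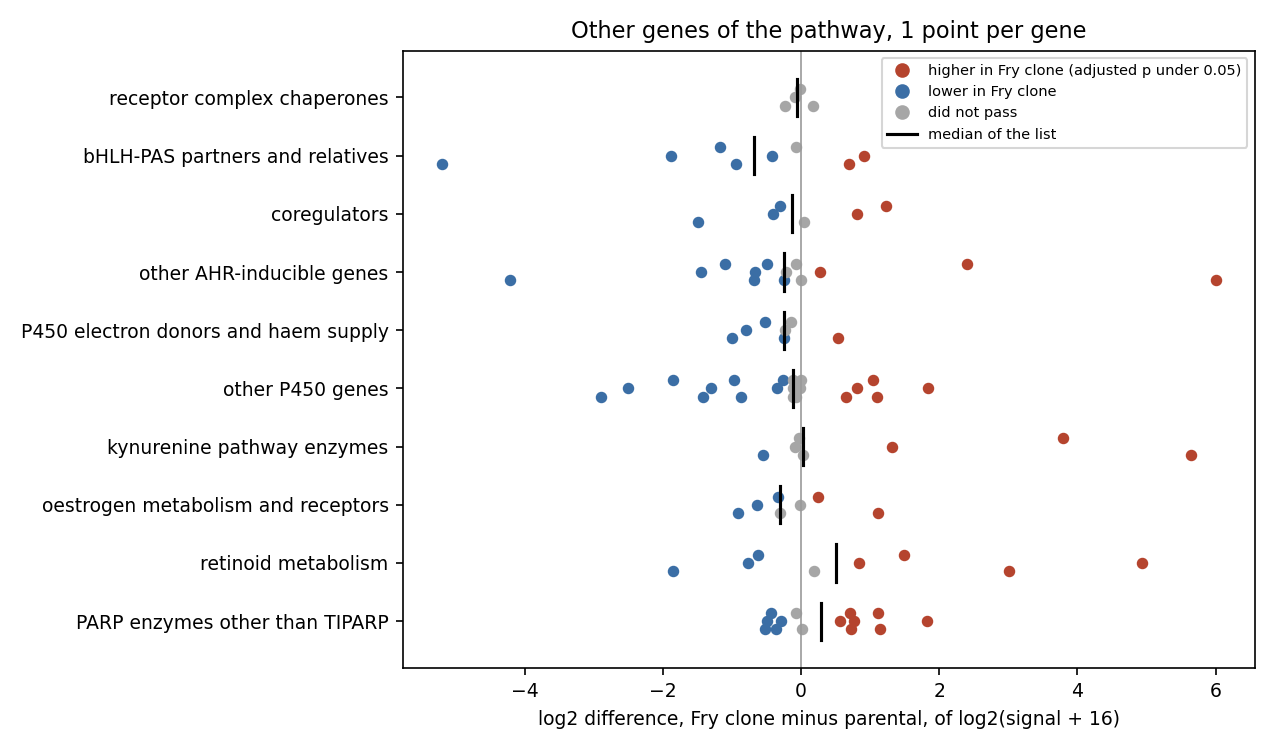
Log2 difference (samples labelled Fry clone minus parental) of each tested gene in 9 pathway lists and the other P450 genes, 1 point per gene, coloured by call (limma adjusted p under 0.05), with a line at the list's median. Calls run in both directions in every list but the chaperones, where 0 of 4 passed, from BMAL2 at -5.20 to STC2 at 6.01.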

How the data were processed

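Total RNA was amplified, labelled with biotin and hybridised to 1-colour Affymetrix arrays, per the labels' protocols. The deposited intensity values are linear MAS5 signals, as the submitters' processing notes record, and the version of MAS5 is not given in the sources used here. No detection calls were used, and ratios of values near background are unstable. Gene names came from GEO's platform annotation, and 41037 of 41091 probe sets naming 1 gene matched RefSeq (GRCh38.p14) by Entrez identifier.

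The 62 control probe sets were left out. The deposited values were turned into log2(signal + 16), which understates changes of dim genes, and probe sets with a mean at or above the 40th percentile (a signal of 5.62) were fitted with lmFit and eBayes of limma 3.58.1 (R 4.3.3) over all 6 arrays. P-values were adjusted by Benjamini-Hochberg over 32768 probe sets with a threshold of 0.05. The fit was also run on simulated data with far fewer changed probe sets than were called here, which does not check the calls in these data. Each gene stands as its brightest tested probe set by mean. Named were the 7 genes, FRY, up to 4 genes per list with the largest called differences and no overlap, marker genes, and the 5 most like CYP1B1; other genes are marked as named after their values were seen. Members and lists were chosen with earlier results of these data known. Alternatives were other pseudocounts (1 and 64), no filter or a 60th percentile filter, quantile normalization, a replicate block, single arrays left out, and probe sets averaged per gene. The number of arrays, 3 per group, limits precision. The labels name no batch.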

Additional observations from a re-analysis of the deposited data

How the results depend on the processing

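Over the alternatives tried, the log2 difference of CYP1B1 kept its sign: it was -9.73 with a pseudocount of 1, -5.17 with 64 and -6.57 as the mean of its 3 tested probe sets, and -7.11 to -6.91 with single arrays left out. That of CYP1A1, not called, ran from -0.24 to 0.022 with single arrays left out, with 0.0094 without replicate 3 of the samples labelled Fry clone and 0.022 without parental replicate 3. With the 60th percentile filter 1 other P450 gene rose and 3 fell, where 5 instead of 20 were tested. The single fall at the CYP1B1 locus became 0 with a pseudocount of 64, 0 with the replicate block and 2 with probe sets averaged, and 0 to 1 with single arrays left out; the cause was not tested. Deviations from the group means correlated weakly between same-numbered samples of the groups, at 0.070, 0.075 and 0.19. Between differently numbered samples the correlations ran from -0.13 to 0.079, and whether replicate numbers pair the samples was not tested. With the replicate block 10067 probe sets rose and 10703 fell, against 9899 and 10538 without it, and of the pathway genes 23 rose and 31 fell. The count of lower probe sets among the 7 genes ran from 8 to 9 with single arrays left out. Of 757 alternatives for 59 single genes, 755 kept the direction and 2, both of CYP1A1, reversed it. A further 2, of STS and DHX57, kept the direction but lost the call. Differences moved by over 1.5 times for 14 single genes with a pseudocount of 1, 20 with 64 and 12 with probe sets averaged. Among the 7 genes the pseudocounts of 1 and 64 gave 3.32 and 1.64 for AHRR and -1.92 and -1.01 for ARNT2, and ARNT was -0.63 with 64 and -0.64 as the mean of its probe sets. Signals near the unspiked controls limit what can be said of CYP1B1 in the samples labelled Fry clone to a bound.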
